A study of Homo sapiens with 10 samples.

Results

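Genes that carry iron into, around and out of the cell were followed in K562 cells, a human chronic myeloid leukemia line with erythroid features, after inhibition of the CREBBP/EP300 bromodomains. The 10 were chosen by symbol: *TFRC*, *TFR2* and *SLC11A2* (uptake), *SLC25A37* (import into mitochondria), *SLC40A1* (export), *FTH1*, *FTL* and *NCOA4* (storage and release from storage), and *ACO1* and *IREB2* (regulators). All 10 were found among the 23284 genes of the expression table, and all 10 were among the 12788 genes tested. K562 cells grown in RPMI medium with 10% FBS were exposed for 48 h to vehicle (DMSO), to 2 or 5 µM CBP30, or to 2 or 5 µM I-CBP112, and polyadenylated RNA was sequenced from 2 biological replicates in each of the 5 conditions. CBP30 and I-CBP112 are inhibitors that bind the bromodomains of the acetyltransferases CREBBP and EP300, the modules with which these proteins recognize acetylated lysine. All groups share 1 cell line and 1 time point, and the DMSO samples serve every comparison with vehicle, so those comparisons are not independent of each other.

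Iron reaches erythroid cells mainly bound to transferrin, which is taken up with the transferrin receptor encoded by *TFRC*; in the endosome the iron is reduced and leaves through the divalent metal transporter encoded by *SLC11A2*. It is then used in mitochondria for heme and iron-sulfur clusters, stored in a shell of ferritin heavy (*FTH1*) and light (*FTL*) chains, or exported by ferroportin (*SLC40A1*). Iron regulatory proteins 1 and 2, the products of *ACO1* and *IREB2*, bind a hairpin called the iron-responsive element (IRE) when iron is scarce. Bound to a 5′ UTR the proteins block translation, as in the ferritin mRNAs, and bound to the 3′ UTR of *TFRC* they protect the mRNA from decay. The sequencing measured mRNA, not protein, translation or iron.

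The iron-responsive elements are the sequences through which these mRNAs are linked, so their letters are shown for 5 of the genes. They were searched in GENCODE transcripts of protein-coding genes on GRCh37, the build of the expression table, as an unpaired C, 5 bases, the 6-base loop CAGTGN and 5 bases that pair with the first 5 in at least 4 of 5 positions. The transcript strand was searched. Capitals mark the unpaired C and the loop, and each stretch of 30 bases reads 5′ to 3′. *FTH1* (chr11:61735046-61735075, minus strand), *FTL* (chr19:49468591-49468620, plus strand) and *SLC40A1* (chr2:190445387-190445416, minus strand) held it in the 5′ UTR with all 5 positions paired:
FTH1: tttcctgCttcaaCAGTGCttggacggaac
FTL: tctcttgCttcaaCAGTGTttggacggaac
SLC40A1: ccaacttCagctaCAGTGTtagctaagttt

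The 3′ UTR of *TFRC* held 4 such matches on the minus strand of chromosome 3, all with 5 of 5 positions paired, at chr3:195777850-195777879, chr3:195777446-195777475, chr3:195777381-195777410 and chr3:195777334-195777363, listed here in the order of transcription. The 3′ UTR of *SLC11A2* held 1 match (chr12:51382052-51382081, minus strand) with 4 of 5 positions paired:
TFRC 1: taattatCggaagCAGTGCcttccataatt
TFRC 2: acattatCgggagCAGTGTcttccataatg
TFRC 3: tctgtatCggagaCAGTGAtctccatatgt
TFRC 4: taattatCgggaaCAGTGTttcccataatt
SLC11A2: tagccatCagagcCAGTGTgtttctatggt

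Of 19807 protein-coding genes, 1.49% had a match in a 5′ UTR and 4.98% in a 3′ UTR, and 0.192% and 0.717% had one with all 5 positions paired. *ACO1* and *IREB2* each had a match with 4 of 5 positions paired in the 3′ UTR of 1 transcript. The matches of *SLC40A1* and *FTL* were also in 1 transcript each, against 4 for *SLC11A2*, 7 for *FTH1* and 10 for *TFRC*. The FPKM values are per gene and do not show which transcripts were expressed. *TFR2*, *SLC25A37* and *NCOA4* held none, which says only that these letters are not there. A match is a description of the letters and not a measured binding site.

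Values are FPKM, fragments per kilobase of transcript scaled for library size. Changes are differences of log2(FPKM + 1), so that changes of weakly expressed genes come out too small. The libraries summed to between 547504 and 689095 FPKM. The depth in reads is unknown, and the precision rests on 2 samples per condition. Replicate 1 of 2 µM CBP30 stood apart. In it, the fifth of genes with the shortest transcripts had a median log2 difference of 0.26 from the DMSO mean and the fifth with the longest one of −0.28, against 0.00 and −0.02 in replicate 2. The difference between both replicates followed transcript length across 12130 genes (Spearman rho = −0.57, a description across genes, which are not independent). Both samples of 5 µM CBP30 had a smaller tilt the other way, with medians of −0.12 for the shortest and 0.11 for the longest genes. This touches the genes described here, since *FTL* (871 bases) and *FTH1* (1203 bases) are short while *IREB2* (6324 bases), *TFRC* (6872 bases) and *ACO1* (7443 bases) are long. Differences from DMSO that changed their call without that library or with each sample's trend with length removed are therefore given both ways.

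With 5 µM CBP30, the genes of uptake, mitochondrial import and export fell and both ferritin chains rose. The calls of the ferritin chains were fragile, as described below. *TFRC*, *TFR2*, *SLC11A2*, *SLC25A37* and *SLC40A1* were lower than in DMSO, *FTH1*, *FTL* and *ACO1* were higher, and *IREB2* and *NCOA4* did not pass the test. Of all genes tested, 25.4% were called lower and 21.2% higher in the same comparison, so 5 and 3 of 10 genes have to be read against a wide response. With 2 µM CBP30 the same 5 genes were lower and 0 were higher, against 16.3% and 15.9% of all genes (limma, adjusted p under 0.05; 6 of the 10 had an unadjusted p under 0.05). With 5 µM I-CBP112, *TFR2* and *SLC40A1* were lower and 0 genes were higher, against 3.28% and 3.84%, and with 2 µM I-CBP112 only *SLC40A1* was lower and 0 were higher, against 0.735% and 0.868% (limma; 4 and 3 of the 10 had an unadjusted p under 0.05). Without replicate 1 of 2 µM CBP30, from which all comparisons take part of their spread, the calls were 10 with 5 µM CBP30, 5 with 2 µM CBP30, 4 with 5 µM I-CBP112 and 3 with 2 µM I-CBP112. The share of all genes called in either direction was then 62.8%, 37.2%, 23% and 9.02%, against 46.6%, 32.1%, 7.12% and 1.6% with all samples.

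**Figure D1:**
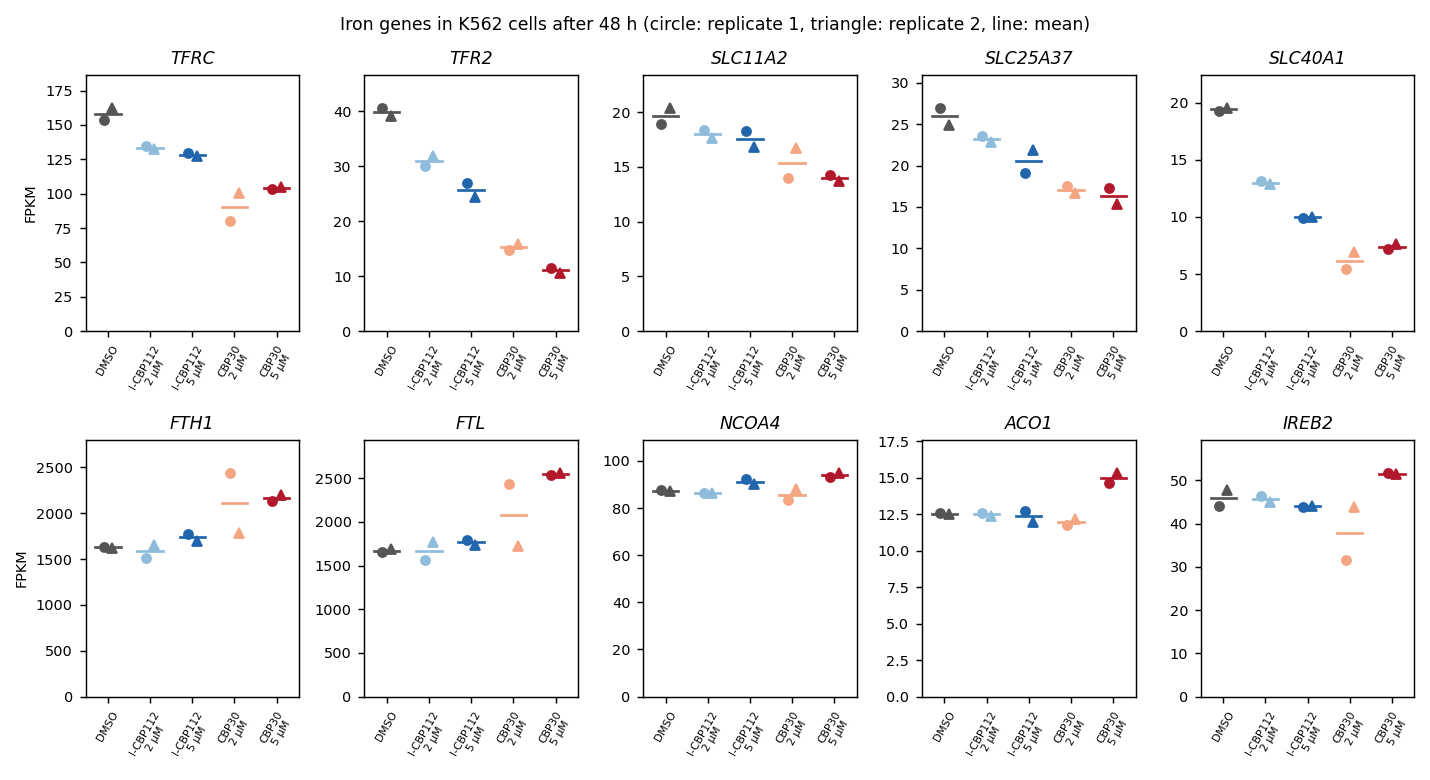
Expression of the 10 iron genes in every sample. The y axes give FPKM on a linear scale from 0, circles are replicate 1, triangles replicate 2 and lines the mean of both; the *TFR2* samples of 5 µM CBP30 sit at 11.6 and 10.7 against 40.6 and 39.2 in DMSO, while the *FTH1* and *FTL* samples of 2 µM CBP30 lie far apart.

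*TFR2*, the second transferrin receptor, which binds transferrin less tightly and takes part in iron sensing and in erythropoietin receptor signaling, had the widest range of the 10 genes. Its level was 40.6 and 39.2 FPKM in DMSO, 29.999 and 31.8 with 2 µM I-CBP112, 26.9 and 24.3 with 5 µM I-CBP112, 14.8 and 15.9 with 2 µM CBP30, and 11.6 and 10.7 with 5 µM CBP30. The 5 conditions followed each other in that order with no overlap between neighbours. At 5 µM CBP30 *TFR2* stood at 27.8% of DMSO, a log2 difference of −1.76 (SE 0.07; limma, adjusted p = 6.15e-06). At 2 µM CBP30 the difference was −1.32 (adjusted p = 5.89e-05), and at 5 µM I-CBP112 it was −0.62 (adjusted p = 0.00414). At 2 µM I-CBP112 it was −0.36 and did not pass (adjusted p = 0.0650), though it did without either sample of 2 µM CBP30 (adjusted p between 0.0247 and 0.0256) and with the length trend removed (0.0475).

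*TFRC*, the main receptor for iron-loaded transferrin, was 154 and 162 FPKM in DMSO, 134 and 132 with 2 µM I-CBP112, 129 and 128 with 5 µM I-CBP112, 80.0 and 101 with 2 µM CBP30, and 103 and 105 with 5 µM CBP30. Every treated sample lay below both DMSO samples, and the lowest value was the library that stood apart. The log2 difference from DMSO for CBP30 was −0.60 at 5 µM (SE 0.10; limma, adjusted p = 0.00234) and −0.81 at 2 µM (adjusted p = 0.00145). Without replicate 1 of the lower dose the latter became −0.65 (adjusted p = 0.000222). The mean was thus lowest at 2 µM, but the doses differed by 0.21 (limma, 95% interval −0.02 to 0.44, adjusted p = 0.123) and no order between them was shown. With I-CBP112 the differences of −0.30 at 5 µM (adjusted p = 0.129) and −0.24 at 2 µM (adjusted p = 0.330) missed the threshold. Both passed it with the length trend removed (adjusted p of 0.00886 and 0.0344) and without either sample of 2 µM CBP30 (0.00260 to 0.00271 at 5 µM and 0.0117 to 0.0118 at 2 µM).

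The pair of receptors did not fall in step with CBP30. *TFR2* was 0.253 ± 0.0157 times the level of *TFRC* in DMSO (SD, n = 2), 0.171 ± 0.0191 with 2 µM CBP30 and 0.107 ± 0.00706 with 5 µM CBP30. It was 0.232 ± 0.0119 and 0.199 ± 0.0123 with 2 and 5 µM I-CBP112. With the length trend removed the ratio was 0.253 in DMSO, 0.153 with 2 µM CBP30 and 0.118 with 5 µM CBP30. The CBP30 doses then lay closer together. For I-CBP112 it was 0.235 at 2 µM and 0.198 at 5 µM. This ratio was chosen after its values were seen and was not tested.

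*SLC11A2*, the transporter that moves ferrous iron out of the endosome, changed less. It was 18.96 and 20.4 FPKM in DMSO, 14.0 and 16.7 with 2 µM CBP30, and 14.3 and 13.7 with 5 µM CBP30. Both doses lay below DMSO without overlap, and the samples of the doses overlapped each other. The log2 differences were −0.46 with 5 µM (SE 0.09; limma, adjusted p = 0.00474) and −0.34 with 2 µM (adjusted p = 0.0252). The call at 2 µM was lost without replicate 1 of DMSO (−0.39, adjusted p = 0.0689) or replicate 2 of DMSO (−0.29, adjusted p = 0.135), and the difference was −0.22 without replicate 1 of 2 µM CBP30 (adjusted p = 0.0481). With I-CBP112 the samples were between 16.8 and 18.4 FPKM, below both DMSO samples, with differences of −0.16 at 5 µM (adjusted p = 0.362) and −0.12 at 2 µM (adjusted p = 0.646).

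*SLC25A37* encodes mitoferrin 1, the carrier that brings iron across the inner mitochondrial membrane of erythroid cells. Its level was 26.9 and 24.9 FPKM in DMSO, 17.5 and 16.6 with 2 µM CBP30, and 17.3 and 15.4 with 5 µM CBP30. For I-CBP112 it was 23.6 and 22.8 at 2 µM and 19.1 and 21.9 at 5 µM. The treated samples were all below DMSO, and the samples of the CBP30 doses overlapped. For CBP30 the log2 difference was −0.63 at 5 µM (SE 0.08; limma, adjusted p = 0.000927) and −0.57 at 2 µM (adjusted p = 0.00307). At 5 µM I-CBP112 it was −0.32 (adjusted p = 0.0684, and 0.0364 to 0.0379 without either sample of 2 µM CBP30), and at 2 µM I-CBP112 it was −0.15 (adjusted p = 0.506).

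*SLC40A1*, which encodes ferroportin, the iron exporter of the plasma membrane, was the only one of the 10 genes called in all 4 comparisons with DMSO. It was 19.3 and 19.5 FPKM in DMSO, 13.1 and 12.9 with 2 µM I-CBP112, 9.88 and 10.0 with 5 µM I-CBP112, 7.15 and 7.67 with 5 µM CBP30, and 5.40 and 6.95 with 2 µM CBP30. No 2 conditions overlapped, and the CBP30 doses differed by less than their summed SD. For CBP30 the log2 difference was −1.28 at 5 µM (SE 0.10; limma, adjusted p = 7.55e-05) and −1.52 at 2 µM (adjusted p = 0.000117, and −1.36 with adjusted p = 4.10e-05 without replicate 1). For I-CBP112 it was −0.90 at 5 µM (adjusted p = 0.00332) and −0.55 at 2 µM (adjusted p = 0.0461). The last call was lost when either sample of DMSO, 5 µM CBP30, 2 µM I-CBP112 or 5 µM I-CBP112 was left out (adjusted p between 0.111 and 0.260, with a difference of −0.53 to −0.56). Uptake receptors and exporter, which move iron in opposite directions, were thus lower in the same CBP30 samples.

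**Figure D2:**
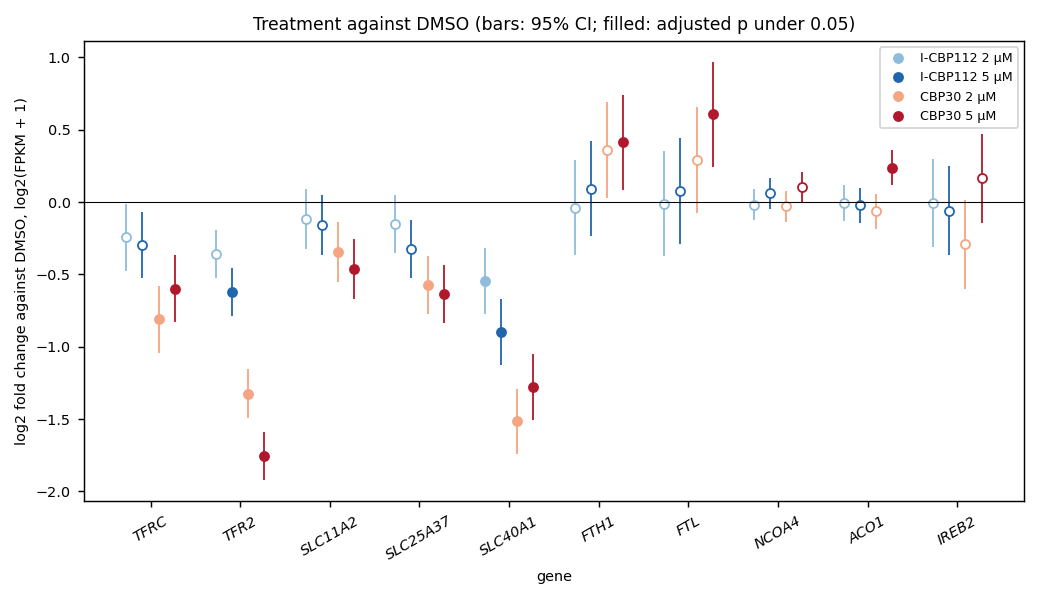
Difference from DMSO for each of the 10 genes and 4 treatments. The y axis is the difference of mean log2(FPKM + 1), bars are 95% confidence intervals of the limma fit and filled symbols have an adjusted p under 0.05; *TFR2* (−1.76) and *SLC40A1* (−1.28) have the lowest values with 5 µM CBP30 and *FTL* (0.61) the highest.

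Ferritin mRNA was abundant in all conditions. *FTH1*, the heavy chain with ferroxidase activity, was 1629.9 and 1625 FPKM in DMSO, 2136 and 2197 with 5 µM CBP30, and 2436 and 1788 with 2 µM CBP30. With I-CBP112 it was 1515 and 1658 at 2 µM and 1773 and 1699.6 at 5 µM. Both samples of 5 µM CBP30 were above DMSO, a log2 difference of 0.41 (SE 0.14; limma, adjusted p = 0.0463). That call was close to the threshold, and was lost when any 1 sample other than those of 2 µM CBP30 was left out (adjusted p between 0.0687 and 0.174, difference 0.39 to 0.43), without a filter on low values (0.106) and with median centring (0.0683). With the length trend removed the difference was 0.57 (adjusted p = 0.000132).

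*FTL*, the light chain that helps form the iron core, was 1656 and 1688 FPKM in DMSO, 2538 and 2556 with 5 µM CBP30, and 2429.7 and 1722 with 2 µM CBP30. With I-CBP112 it was 1559.9 and 1764 at 2 µM and 1792 and 1738 at 5 µM. With 5 µM CBP30 it was 152% of DMSO, a log2 difference of 0.61 (SE 0.15; limma, adjusted p = 0.0157). The call was lost without replicate 1 of DMSO (adjusted p = 0.0801), replicate 2 of DMSO (0.0667), replicate 1 of 5 µM CBP30 (0.0726) or replicate 2 of 5 µM CBP30 (0.0778), while the difference stayed between 0.59 and 0.62. With the length trend removed it was 0.75 (adjusted p = 6.72e-05).

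At 2 µM CBP30 the ferritin values rested on 1 library. *FTH1* was 150% of DMSO in replicate 1 and 110% in replicate 2, and *FTL* was 145% and 103%. With the length trend removed the same pairs were 120% and 109%, and 113% and 102%. The log2 differences of 0.36 for *FTH1* (limma, adjusted p = 0.0910) and 0.29 for *FTL* (adjusted p = 0.187) were not called. With the length trend removed *FTH1* differed by 0.19 and was called (adjusted p = 0.0265), as it was with quantile normalization (0.20, adjusted p = 0.00645). Without replicate 1 they were 0.14 (adjusted p = 0.142) and 0.04 (adjusted p = 0.684), and without replicate 2 they were 0.58 (adjusted p = 0.000578) and 0.54 (adjusted p = 0.00137). With I-CBP112, the largest difference of either chain from DMSO was 0.09 (95% interval −0.24 to 0.42).

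**Figure D3:**
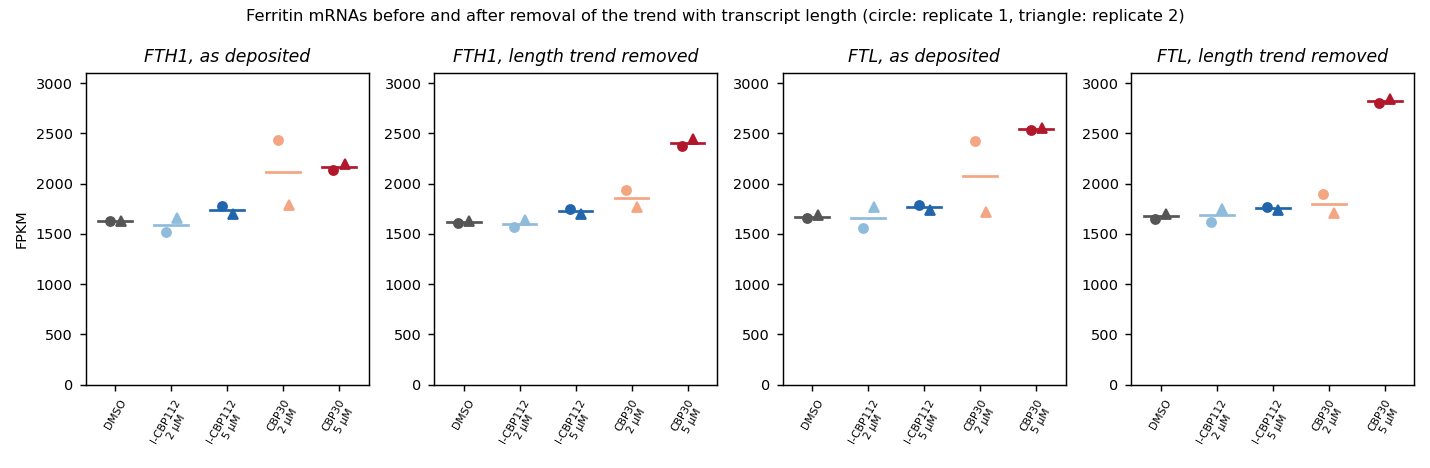
*FTH1* and *FTL* in every sample, as deposited and with each sample's trend with transcript length removed. The y axes give FPKM from 0, circles are replicate 1, triangles replicate 2 and lines the mean; the replicates of 2 µM CBP30 come closer after removal, and both 5 µM CBP30 samples are above the other conditions in the panels with the trend removed.

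The chains did not change by the same factor with 5 µM CBP30. *FTH1* was 0.973 ± 0.0154 times *FTL* in DMSO, 0.851 ± 0.0126 with 5 µM CBP30, and 1.02 ± 0.0249 with 2 µM CBP30 (SD, n = 2). For I-CBP112 it was 0.955 ± 0.0223 at 2 µM and 0.984 ± 0.00822 at 5 µM. The ratio with 5 µM CBP30 was 0.854 with the length trend removed, but under quantile normalization it was 0.933 against 0.942 in DMSO, so the lower ratio depended on the scaling. The ratio was chosen after its values were seen and was not tested. *FTH1* and *FTL* have 25 and 16 annotated copies named FTH1P and FTLP, of which 1 each has a row in the table. Their values were at most 2.36 FPKM (*FTH1P3*) and 0.0967 FPKM (*FTLP10*). How reads shared with such copies were counted is not given in the sources used here, so the levels of both chains are uncertain to that extent.

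*NCOA4*, the receptor that delivers ferritin to autophagosomes for iron release, was the steadiest of the 10 genes. It was 87.5 and 87.2 FPKM in DMSO, 93.1 and 94.7 with 5 µM CBP30, and 83.3 and 88.1 with 2 µM CBP30. For I-CBP112 it was 86.5 and 86.2 at 2 µM and 92.3 and 90.1 at 5 µM. The samples of 5 µM CBP30 lay above those of DMSO by 0.10 (limma, 95% interval −0.00444 to 0.21, adjusted p = 0.104). This passed the threshold with the length trend removed (0.14, adjusted p = 0.0320) and without either sample of 2 µM CBP30 (0.10, adjusted p of 0.0116 and 0.0127).

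Of the regulators, *ACO1*, whose product is either cytosolic aconitase or iron regulatory protein 1, was 12.6 and 12.5 FPKM in DMSO and 14.6 and 15.3 with 5 µM CBP30. The other 6 samples lay between 11.8 and 12.8 FPKM. The log2 difference with 5 µM CBP30 was 0.24 (SE 0.05; limma, adjusted p = 0.00809). It was 0.14 with the length trend removed (adjusted p = 0.116) and 0.21 without replicate 2 of 5 µM CBP30 (adjusted p = 0.0643), and was not called in either case. *IREB2*, which encodes iron regulatory protein 2, was 43.99 and 47.8 FPKM in DMSO, 51.7 and 51.4 with 5 µM CBP30, and 31.7 and 43.8 with 2 µM CBP30. With I-CBP112 it stayed between 43.96 and 46.4 FPKM. Its differences for CBP30, 0.16 at 5 µM (limma, adjusted p = 0.334) and −0.29 at 2 µM (adjusted p = 0.126), were not called. Without replicate 1 of 2 µM CBP30 they were 0.16 (adjusted p = 0.0153) and −0.07 (adjusted p = 0.364), and without replicate 2 the latter was −0.52 (adjusted p = 0.000457).

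Between the doses of CBP30, *TFR2* was lower at 5 than at 2 µM and *ACO1* and *IREB2* were higher, against 21.3% and 17.6% of all genes. *TFR2* differed by −0.43 (limma, adjusted p = 0.00643, and 0.0536 without replicate 2 of 5 µM CBP30). *ACO1* differed by 0.30 (adjusted p = 0.00742), but by 0.07 with the length trend removed (adjusted p = 0.449), and was not called without replicate 2 of 5 µM CBP30 (0.27, adjusted p = 0.0611). *IREB2* differed by 0.46 (adjusted p = 0.0318), and by 0.23 without replicate 1 of 2 µM CBP30 (adjusted p = 0.01995). Its call was lost when any 1 sample other than those of 2 µM CBP30 was left out (adjusted p between 0.0514 and 0.122). Between the doses of I-CBP112, 0 of the 10 genes passed in limma, against 0.00782% lower and 0.0547% higher of all genes, and 2 had an unadjusted p under 0.05. These were *TFR2* (−0.26, adjusted p = 0.612) and *SLC40A1* (−0.35, adjusted p = 0.614).

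The compounds were compared directly at each matched dose, with p-values adjusted over all 12788 genes. At 5 µM, *TFR2* (−1.13), *SLC40A1* (−0.38), *SLC25A37* (−0.31) and *SLC11A2* (−0.30) were lower with CBP30 than with I-CBP112, and *FTL* (0.53) and *ACO1* (0.26) were higher, against 17.9% and 13.6% of all genes called lower and higher. For *TFR2* the 95% interval was −1.30 to −0.97 (limma, adjusted p = 0.000108), and 11.6 and 10.7 FPKM with CBP30 faced 26.9 and 24.3 with I-CBP112. The other 5 had adjusted p between 0.00986 and 0.0383 in limma, and each lost the call when a sample of 1 of these groups was left out. The highest adjusted p was then 0.192 for *SLC11A2*, 0.176 for *SLC25A37*, 0.158 for *FTL*, 0.126 for *SLC40A1* and 0.0790 for *ACO1*. With the length trend removed *ACO1* differed by 0.15 and was not called (adjusted p = 0.120). Those that did not pass were *TFRC* (−0.30, 95% interval −0.53 to −0.07, adjusted p = 0.0534), *FTH1* (0.32, −0.01 to 0.65), *IREB2* (0.22, −0.08 to 0.53) and *NCOA4* (0.04, −0.07 to 0.15).

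At 2 µM, *TFRC* (−0.57), *TFR2* (−0.96), *SLC25A37* (−0.42) and *SLC40A1* (−0.97) were lower with CBP30 than with I-CBP112 and 0 of the 10 genes were higher, against 8.45% and 7.13% of all genes (limma, adjusted p between 0.000885 and 0.0213; 6 of the 10 had an unadjusted p under 0.05). The call was lost without replicate 1 or 2 of 2 µM I-CBP112 for *TFRC* (adjusted p of 0.0885 and 0.0735) and *SLC25A37* (0.125 and 0.0883). *SLC40A1* was 47.5% and *TFR2* 49.7% of the level with I-CBP112. Among those not called, *SLC11A2* differed by −0.22 (95% interval −0.43 to −0.02), *ACO1* by −0.06 (−0.18 to 0.06) and *NCOA4* by −0.01 (−0.12 to 0.10). The intervals for *FTH1* (0.07 to 0.73), *FTL* (−0.06 to 0.67) and *IREB2* (−0.59 to 0.02) were wide and include the library that stood apart.

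The other genes of iron handling were taken as 6 lists of 66 genes, of which 57 were tested. Under CBP30, 21 were lower and 7 higher at 5 µM (25.4% and 21.2% of all genes), and 16 lower and 9 higher at 2 µM (16.3% and 15.9%). For I-CBP112 the numbers were 7 lower and 2 higher at 5 µM (3.28% and 3.84% of all genes), and 2 lower and 0 higher at 2 µM (0.735% and 0.868%; limma, 14 had an unadjusted p under 0.05). Their median difference was −0.05, −0.06, −0.07 and −0.06, against −0.01, 0.01, 0.00 and 0.00 over all genes tested. Without replicate 1 of 2 µM CBP30 the genes called numbered 38, 31, 24 and 14 in the same order, beside 62.8%, 37.2%, 23% and 9.02% of all genes in that fit.

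In the list of mitochondrial iron import and iron-sulfur cluster assembly, the longest of the 6, 10 of 18 were lower and 0 higher with 5 µM CBP30 (median −0.33), against 25.4% and 21.2% of all genes (limma; 13 had an unadjusted p under 0.05). *HSPA9*, the mitochondrial chaperone that passes clusters on, fell from 347 ± 7.80 to 188 ± 0.895 FPKM (SD, n = 2; log2 difference −0.88, SE 0.05, limma, adjusted p = 2.13e-05). *FDXR*, the ferredoxin reductase, fell by 0.71 to 59.6% of DMSO. With 2 µM CBP30 *HSPA9* fell by 0.34, while *FDXR* differed by −0.03 and was not called. Its samples, 30.95 and 22.7 FPKM, lay on either side of the DMSO mean of 27.05, and without replicate 1 it fell by 0.25 (adjusted p = 0.0394).

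In the list of endosomal and other iron entry, 4 of 8 were lower and 1 higher with 5 µM CBP30 (median −0.37), against 25.4% and 21.2% of all genes. *TF*, the gene of transferrin itself, was 10.3 and 9.32 FPKM in DMSO, 5.14 and 4.36 with 2 µM CBP30, 1.47 and 1.22 with 5 µM CBP30, and 6.31 and 7.31 with 5 µM I-CBP112. *STEAP3*, the endosomal ferrireductase that prepares iron for the transporter of *SLC11A2*, was 10.2 and 10.5 FPKM in DMSO, 4.604 and 4.75 with 2 µM CBP30, 3.12 and 3.06 with 5 µM CBP30, and 7.03 and 6.92 with 5 µM I-CBP112. Both genes were lower in each of these treatments without overlap with DMSO. With 5 µM CBP30 the log2 differences were −2.20 for *TF* and −1.47 for *STEAP3* (limma, adjusted p of 1.36e-05 and 2.88e-06). *SLC39A8*, a zinc and iron importer, fell by 0.82 with 5 µM CBP30 and by 0.29 with 5 µM I-CBP112.

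In the list of export, ferroxidases and heme handling, 3 of 8 were lower and 2 higher with 5 µM CBP30 (median −0.08). For this list and those that follow, 25.4% of all genes were lower and 21.2% higher. *BLVRB*, a biliverdin reductase abundant in red cells, fell by 1.73 to 29.8% of DMSO, and *HEPH*, the ferroxidase that works with ferroportin, by 0.79 to 56.9%. *FLVCR1*, described as a heme exporter, rose by 0.51. Of the iron chaperones and the proteins that control the regulators, 1 of 9 was lower and 2 were higher (median 0.02). *FBXL5*, the iron-sensing part of the ligase that degrades iron regulatory protein 2, rose by 0.42, *SKP1*, a subunit of the same ligase, rose by 0.47, and *PCBP1*, which hands iron to ferritin, fell by 0.34. Of the other ferritin and ferritinophagy genes, 1 of 9 was lower (*ATG7*, −0.26) and 1 higher (*ATG5*, 0.54; both act in forming the autophagosome). Of the other mRNAs listed for an iron-responsive element, 2 of 5 were lower (among them *CDC14A*, a phosphatase, −0.43) and 1 was higher (*EPAS1*, hypoxia-inducible factor 2 alpha, 0.55).

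**Figure D4:**
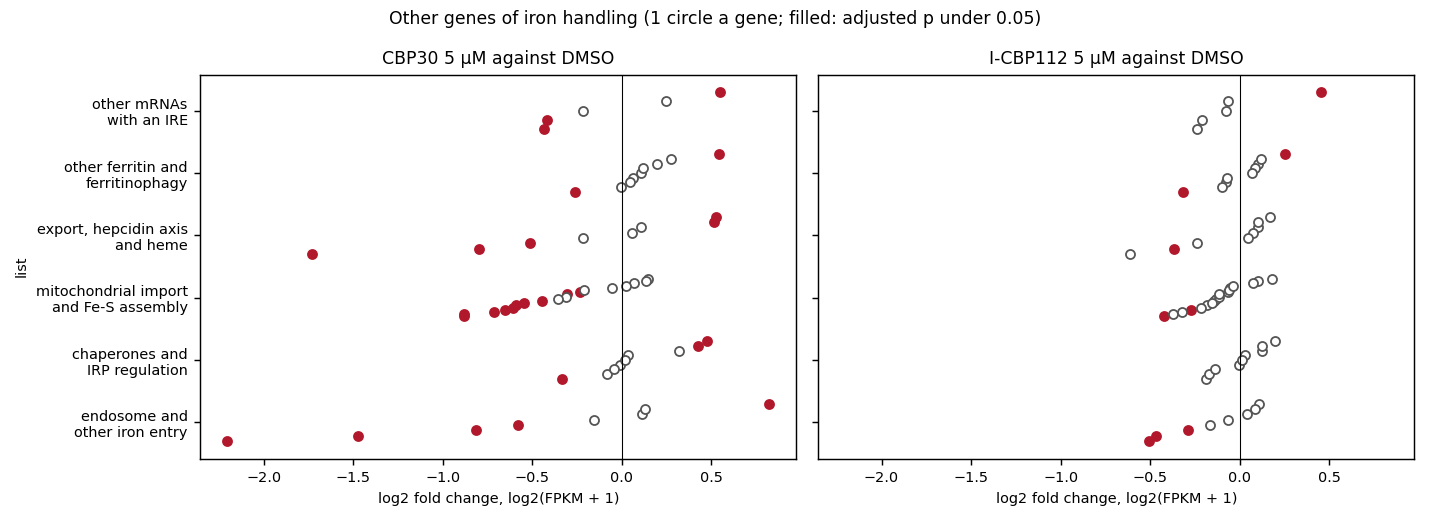
The other 57 tested genes of iron handling by list, with 5 µM CBP30 on the left and 5 µM I-CBP112 on the right. The x axis is the difference of log2(FPKM + 1) from DMSO and filled circles have an adjusted p under 0.05; 28 are filled with CBP30 and 9 with I-CBP112, and *TF* (−2.20) lies farthest to the left.

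Most markers of the erythroid program fell with 5 µM CBP30, as did *TFRC*, *TFR2*, *SLC11A2*, *SLC25A37* and *SLC40A1*. In that comparison *FTH1*, *FTL* and *ACO1* were higher instead, and *IREB2* and *NCOA4* were not called. Of 9 such markers 8 were lower and 1 (*TAL1*) higher with 5 µM CBP30, 7 lower with 2 µM CBP30, 5 with 5 µM I-CBP112 and 2 with 2 µM I-CBP112. Of all genes tested, 25.4%, 16.3%, 3.28% and 0.735% were lower in the same order, and 21.2% were higher with 5 µM CBP30. Summed, they ranged from 1742 to 1799.5 FPKM in DMSO, 598 to 830.2 with 2 µM CBP30, 523 to 548 with 5 µM CBP30, 1004 to 1126 with 2 µM I-CBP112 and 963 to 1051 with 5 µM I-CBP112. *GATA1*, the erythroid transcription factor, fell from a mean of 170.3 to 53.1 FPKM with 5 µM CBP30, and *KLF1* from 65.3 to 8.44. In these bulk samples fewer cells of a type and less RNA per cell cannot be told apart, and the part of the erythroid change in the iron genes was not tested. Of 6 macrophage and monocyte markers, the defining *CD14*, *CD163*, *CSF1R* and *MARCO* stayed below 1 FPKM in every sample (*MARCO* was listed at 0), while *LYZ* and *CD68* were present. The summed level of these 6 ranged from 47.3 to 47.8 FPKM in DMSO and from 50.6 to 59.7 in the treated samples. *LYZ* carried most of the sum and rose from 38.2 to 46.1 FPKM with 5 µM CBP30, while *CD68* fell from 9.27 to 6.28. The 3 hepatocyte markers summed to at most 0.901 FPKM. The 4 lymphoid markers summed to 2.06 FPKM in both DMSO samples, 3.20 to 3.71 with 2 µM CBP30, 4.22 to 4.31 with 5 µM CBP30 and 1.74 to 2.53 with I-CBP112, and *CD3E* rose from 1.10 to 3.23 FPKM with 5 µM CBP30 while *MS4A1* was listed at 0. The part of these markers in the results was not tested.

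For the 3 genes with the widest range, tested genes alike in their 4 differences from DMSO were sought among the 8996 genes whose mean reached 5 FPKM, by the root mean square distance between the 4 values. For *TFR2* these were *WIPF3* (0.0428), *NOSTRIN* (0.0886) and *WNK4* (0.119), for *SLC40A1* they included *CAV2* (0.143) and *TRIM58* (0.145), and for *TFRC* they were *URB1* (0.0361), *ITPRIP* (0.0373) and *ZNF614* (0.0413). The 4 differences share the DMSO samples, so the likeness is a description only.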

How the data were processed

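The RNA-seq values were deposited by the authors as FPKM, 1 column per sample, without pooling of replicates. Polyadenylated RNA had been made into stranded libraries and sequenced as single reads of 50 bases. The study's methods name Nextpresso and hg19 (GRCh37), and the submitters' processing notes list FastQC, TopHat2 2.0.10, Bowtie 1.0.0, SAMtools 0.1.19, Cufflinks 2.2.1 and Cuffnorm. The gene annotation is not given in the sources used here. FPKM is a relative measure, so a change in a few abundant genes can shift the others. How Cuffnorm scaled the libraries to each other was not examined.

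All columns carried the names of their samples. log2(FPKM + 1) was fitted for genes whose mean reached 0.5 FPKM, over all 5 groups together, with limma 3.58.1 (lmFit, eBayes with trend) in R 4.3.3, with 5 residual degrees of freedom plus 2.15 from the prior, in 8 comparisons. P-values are two-sided and Benjamini-Hochberg adjusted over 12788 genes, and calls have an adjusted p under 0.05. The fit was tested on simulated data. Transcript lengths came from GENCODE (longest transcript) and matched 21409 genes (91.95%). The length trend was removed by lowess in each sample. Tables and figures were made with Python 3.11.15, pandas 2.3.3 and matplotlib 3.10.9.

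The genes and lists were chosen with earlier results of these data known. Some genes that the rule covers are not reported here. Text names all 10 genes, and at most 3 called genes per list with the largest change with 5 µM CBP30 and at least 5 FPKM. *GATA1*, *KLF1* and the other markers are from the marker lists and were named after their values were seen. Alternatives were other pseudocounts, filters, scalings and fits, a replicate block, the length trend and leaving out each of the 10 samples.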

Additional observations from a re-analysis of the deposited data

How the results depend on the processing

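With 2 samples per group and no read counts, single calls near the threshold are fragile. Of 53 differences of the 10 genes, 29 were called. Of these 29, 17 lost the call under at least 1 of the 10 alternatives besides leaving out a sample, and 0 turned direction. Of all 53, called or not, 24 kept direction and side of the threshold under all 10 of these alternatives. Fitting only the groups compared, with fewer residual samples, left 2 of 5 genes called with 2 µM CBP30, 0 of 1 with 2 µM I-CBP112, 0 of 3 between the CBP30 doses and 0 of 4 between the compounds at 2 µM. Of the other iron genes it called 1 with 2 µM CBP30 (25 in the main analysis), 15 with 5 µM I-CBP112 (9) and 0 with 2 µM I-CBP112 (2). Of the 10 genes, 0 were called with 2 µM I-CBP112 with a pseudocount of 0.1 or without a filter, and 3 with the length trend removed. Between the CBP30 doses 6 were called with quantile normalization and 5 with the length trend removed. With 2 µM I-CBP112, the other iron genes called were 1 without a filter, 1 with a filter at 5 FPKM, 1 with median centring and 9 with the length trend removed. The cause was not tested. The share of all genes called was not computed for these alternatives or for the replicate block described next. The counts therefore cannot be read as a result about the iron genes alone.

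The replicate number is not stated to pair the samples. Differences between replicate 1 and replicate 2 correlated between −0.0681 and 0.0939 over 10 pairs of groups. This is a description across genes and cannot decide whether same-numbered samples were paired. With the number as a replicate block, 0 of the 10 genes and 0 other iron genes were called with 2 µM I-CBP112. The calls of *FTH1* with 5 µM CBP30 (limma, adjusted p = 0.0646) and of *SLC11A2* (0.0565) and *FTL* (0.0577) between the compounds at 5 µM were also lost. With block and length trend removal, 4 other iron genes were called with 2 µM I-CBP112 against DMSO. Between the CBP30 doses, 5 of the 10 genes were then called.

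Leaving out 1 sample at a time gave 5 to 10 of the 10 genes called with 5 µM CBP30 (8 with all samples), 4 to 8 with 2 µM CBP30 (5), 2 to 4 with 5 µM I-CBP112 (2), 0 to 3 with 2 µM I-CBP112 (1), 0 to 6 between the CBP30 doses (3), 1 to 9 between the compounds at 5 µM (6) and 2 to 8 at 2 µM (4). Other iron genes called ranged from 25 to 38 with 5 µM CBP30 (28), 14 to 35 with 2 µM CBP30 (25), 1 to 24 with 5 µM I-CBP112 (9) and 0 to 14 with 2 µM I-CBP112 (2). A lone sample was assumed to vary like the other groups. The share of all genes called also shifted, as given above for the fit without replicate 1 of 2 µM CBP30. It was not computed for the other samples left out. The ranges therefore cannot be read as a result about the iron genes alone.

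Differences that were not called and turned sign were all small. With 2 µM CBP30, *ACO1* became 0.0746 with the length trend removed (with and without the block), and *NCOA4* 0.0062 with median centring. With 2 µM I-CBP112, quantile normalization gave *FTH1* 0.0206, *ACO1* 0.0029, *IREB2* 0.0357 and *NCOA4* 0.0216, and removal of the length trend gave *FTL* 0.0112 (with and without the block). Leaving out 1 sample at a time gave *NCOA4* −0.0679 to 0.0121 with 2 µM CBP30 and *ACO1* −0.0642 to 0.0219 at 5 µM of I-CBP112. For the lower dose it gave *FTH1* −0.1034 to 0.0265, *FTL* −0.0999 to 0.0776, *ACO1* −0.0162 to 0.0047 and *IREB2* −0.0647 to 0.0533.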
